A study of Mus musculus with 9 samples.

Results

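Ribosome biogenesis and RNA polymerase I genes were followed in crypts of the mouse jejunum after loss of Smad4, alone or together with stabilised beta-catenin. The set holds 50 listed genes: proteins of small nucleolar ribonucleoproteins (snoRNPs), assembly factors of both ribosomal subunits, abundant nucleolar proteins, and subunits and a cofactor of RNA polymerase I. Members were taken by gene symbol from 2 deposited tables of 23951 genes each, and 49 had a row in both; Noc2l was not analysed here. All 49 passed the filter on low values used for testing, a mean of at least 1 FPKM (fragments per length of transcript and size of library) over the 6 libraries of a table.

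The crypts came from 3 groups with 3 libraries each, numbered 0 to 2. Controls are labelled as control mice on vehicle, whereas the design text calls them uninjected; whether they carried the floxed alleles or the recombinase was not given in the sources used here. Smad4 KO mice were Smad4f/f;Villin-CreER(T2), and double mutants were Smad4f/f; Ex3f/+;Villin-CreER(T2). Both kinds of mutant were injected with tamoxifen 4 days in a row, and crypts were taken 1 day after the last injection. Crypts were freed from the tissue with EDTA and filtered. Villin-CreER(T2) is a tamoxifen-dependent recombinase made in the epithelium of the intestine, so immune and stromal cells in a crypt preparation keep their alleles. The Ex3 allele loses exon 3 of the beta-catenin gene on recombination, which removes the sites that mark the protein for destruction. Tamoxifen was given only to the mutant groups, so its effect and that of genotype cannot be told apart.

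A ribosome starts in the nucleolus, where RNA polymerase I transcribes a long precursor of the ribosomal RNAs. Box C/D snoRNPs methylate the precursor, box H/ACA snoRNPs convert uridines to pseudouridines, and large protein assemblies cut it and fold it into the small and the large subunit. The genes of these factors are widely known as targets of Myc, and demand for ribosomes is high in dividing crypt cells.

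Promoter sequence of the members was searched for short motifs. RefSeq promoter windows on GRCm38.p6, which run from 250 bases before to 50 after a transcript start, were found for 44 of the 49 members; Fbl, Npm1, Rrp12, Rrs1 and Bop1 had none. These windows are of another build than the expression tables (mm9), and were matched by symbol alone. For 34 of the 44 members, the window continued over 30 bases into the 5′ end of a transcript. For the rest the start was not matched in this way. All motifs were searched on both strands. The E-box CACGTG, the site preferred by Myc and Max, occurred in the windows of 10 of 44 members (22.7%), against 8.09% of 27025 genes in the table and 12.1% of 8717 genes tested for expression. The ETS core CCGGAAG occurred in 17 of 44 (38.6%), against 9.93% of all genes and 21.0% of those tested. The GC box GGGCGG was present in 31 of 44 (70.5%) and in 69.1% of genes tested. TATAAA was present in 3 of 44 (6.82%) against 8.71%, and a longer palindrome, the Zbtb33 motif, in 0 of 44 against 1.17%. Among the 115 other pathway genes with a window, listed further on, CACGTG was found in 17 (14.8%) and CCGGAAG in 47 (40.9%). A match describes letters and does not show that a factor binds there.

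The next windows are shown because they hold the motif in a large-subunit, a small-subunit and a polymerase I gene, or belong to members with large changes in the double mutants and no CACGTG. Each reads 5′ to 3′ along the gene, and capitals mark CACGTG and CCGGAAG or its reverse complement; none of these matches overlaps another. Positions count from 1 at the transcript start, with negative numbers upstream. Nop2, at chr6:125131633-125131932 (plus strand), has CACGTG from -60 and CCGGAAG from -38. Nle1, at chr11:82908346-82908645 (minus strand), has CACGTG from 24. Utp18, at chr11:93885717-93886016 (minus strand), has CACGTG from -20 and ETS cores from -106 and 7. Rrn3, at chr16:13780449-13780748 (plus strand), is the only member whose window holds CACGTG at 2 places, from -215 and from -48, and it has ETS cores from -5 and 19. Ppan, at chr9:20887925-20888224 (plus strand), and Gar1, at chr3:129831347-129831646 (minus strand), lack CACGTG and have 1 ETS core each, from 19 and from -43.
Nop2: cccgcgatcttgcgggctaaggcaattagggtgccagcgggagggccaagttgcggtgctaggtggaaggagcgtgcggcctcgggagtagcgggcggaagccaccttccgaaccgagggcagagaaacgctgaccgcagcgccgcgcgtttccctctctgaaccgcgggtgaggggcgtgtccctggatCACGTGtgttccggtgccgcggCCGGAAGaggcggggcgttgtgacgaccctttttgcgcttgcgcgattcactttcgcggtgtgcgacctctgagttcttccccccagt
Nle1: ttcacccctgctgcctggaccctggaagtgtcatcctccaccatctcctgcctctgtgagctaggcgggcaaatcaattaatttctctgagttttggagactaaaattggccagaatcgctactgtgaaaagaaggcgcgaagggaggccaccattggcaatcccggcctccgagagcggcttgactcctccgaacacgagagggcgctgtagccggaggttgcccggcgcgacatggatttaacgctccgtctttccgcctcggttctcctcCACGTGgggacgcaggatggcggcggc
Utp18: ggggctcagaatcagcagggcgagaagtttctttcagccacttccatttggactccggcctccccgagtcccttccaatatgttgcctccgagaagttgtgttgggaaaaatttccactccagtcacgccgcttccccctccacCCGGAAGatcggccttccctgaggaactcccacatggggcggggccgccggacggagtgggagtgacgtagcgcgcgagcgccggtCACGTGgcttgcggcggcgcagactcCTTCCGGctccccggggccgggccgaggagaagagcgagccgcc
Rrn3: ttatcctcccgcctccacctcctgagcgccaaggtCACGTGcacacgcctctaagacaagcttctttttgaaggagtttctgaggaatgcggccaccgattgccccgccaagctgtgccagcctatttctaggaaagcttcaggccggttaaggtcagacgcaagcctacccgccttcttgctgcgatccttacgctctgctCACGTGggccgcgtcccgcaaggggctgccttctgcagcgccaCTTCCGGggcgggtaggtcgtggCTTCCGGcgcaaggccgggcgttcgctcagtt
Ppan: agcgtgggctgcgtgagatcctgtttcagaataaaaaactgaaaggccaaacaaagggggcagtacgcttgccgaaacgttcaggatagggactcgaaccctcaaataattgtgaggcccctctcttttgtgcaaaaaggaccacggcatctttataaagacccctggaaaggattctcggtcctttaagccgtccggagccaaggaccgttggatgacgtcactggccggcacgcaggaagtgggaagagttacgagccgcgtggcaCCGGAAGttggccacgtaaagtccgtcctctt
Gar1: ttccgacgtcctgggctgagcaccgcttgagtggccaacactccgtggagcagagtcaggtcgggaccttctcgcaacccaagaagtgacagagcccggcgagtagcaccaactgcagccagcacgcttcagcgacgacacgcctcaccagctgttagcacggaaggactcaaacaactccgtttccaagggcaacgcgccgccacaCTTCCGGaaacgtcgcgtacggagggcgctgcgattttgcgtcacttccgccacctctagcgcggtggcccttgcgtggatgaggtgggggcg
Members with and without CACGTG had overlapping ranges of change. In the double mutants the median log2 fold change was 0.61 for the 10 with the motif (range 0.36 to 0.93, 7 called higher at a limma adjusted p under 0.05, as were 9.39% of all genes tested) and 0.66 for the 34 without it (0.18 to 1.29, 26 called). In Smad4 KO the medians were 0.43 and 0.49.

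The targeted gene was checked in every library, with the libraries of a group always given in the order 0, 1 and 2. Smad4 was at 46.1, 55.5 and 47.8 FPKM in the controls and 11.0, 9.96 and 10.8 in Smad4 KO, and at 47.5, 58.8 and 49.8 FPKM in the controls and 11.2, 10.2 and 9.95 FPKM in the double mutants of the second table. It fell in both (log2 fold change -2.13, SE 0.11, limma adjusted p = 0.00664 for Smad4 KO, and -2.21, SE 0.11, limma adjusted p = 0.00176 for double mutants). Ctnnb1, the beta-catenin gene, was at 289, 294 and 327 FPKM in the controls and 239, 312 and 278 FPKM in the double mutants (log2 fold change -0.14, SE 0.14, limma adjusted p = 0.509), a value over the whole gene that does not check the loss of exon 3. The tables were normalized separately: the same control libraries differ between them by 1 factor per library (1.03, 1.06 and 1.04), so each mutant group is set against the controls of its own table and the mutant groups were not tested against each other. Depth is unknown because FPKM hold no read numbers; FPKM summed to between 568081 and 758719 per library. Labels do not say that the libraries came from separate mice, so p-values measure the spread between these libraries. With 3 against 3 libraries an exact two-sided permutation test cannot give a p below 0.1, so calls rest on limma fitted across all genes on log2(FPKM + 1). Genes with a Benjamini-Hochberg adjusted p under 0.05 are spoken of as called, or as having risen or fallen.

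In control crypts the members lay somewhat above the typical gene. Their median control mean was 19.4 FPKM in the first table, against 13.0 FPKM over all genes tested, and it ran from 3.38 to 102 FPKM. Npm1, a nucleolar histone chaperone, had the highest level at 99.1, 125 and 81.7 FPKM, and Nop10, the smallest box H/ACA protein, followed at 75.6, 113 and 93.8 FPKM. Emg1, a methyltransferase of the small-subunit RNA, was at 93.3, 95.8 and 86.9 FPKM, within the spread of Nop10. Polr1e, a polymerase I subunit, was lowest at 3.38, 3.72 and 3.05 FPKM, below every control value of any other member. Wdr12 was next at 6.48, 7.16 and 5.17 FPKM, and its values overlapped those of Bysl at 7.27, 5.48 and 6.64 FPKM. FPKM are scaled by transcript length, so levels of different genes can be set side by side, though reads shared with gene copies may affect them. Control 2 held the lowest control value for 41 of the 49 members, and control 1 the highest for 32.

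Most members had higher FPKM in the double mutants than in the controls, relative values in a preparation whose cell markers also differed. In the double mutants 37 of 49 members rose and 0 fell, while 9.39% of the 11762 genes tested were called higher and 9.09% lower. All 49 log2 fold changes were positive (49.9% of genes tested), from 0.18 to 1.29 with a median of 0.65, against a median of 0.00 over all genes tested. All double-mutant libraries lay above all controls for 44 members, where 21.3% of genes tested did so. The ratio of means had a median of 1.61 and reached 2 in 6 members: Ppan, Bysl, Gar1, Rrp1b, Nhp2 and Rrp12. Those 12 members that missed the threshold were Fbl, Nop10, Imp3, Ddx10, Utp20, Pes1, Wdr12, Noc3l, Ncl, Ddx21, Rrn3 and Polr1c. Calls depended on the libraries: 27, 33 and 26 members were called without controls 0, 1 and 2, and 12, 16 and 0 when double mutant 0, 1 or 2 was left out. Over all genes the calls fell from 2173 to 139, 708 and 30 in the latter 3 fits, while the member median stayed between 0.55 and 0.71 in these 6 fits. Gar1, with the smallest adjusted p of the members, had limma adjusted p between 0.0131 and 0.0525 over them.

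After Smad4 loss alone every member was also higher on average, with a lower median, and none passed; the difference between the mutant groups was not tested. With limma, 0 of 49 members were called in Smad4 KO, where 0.00844% of 11849 genes were called higher and 0.0253% lower, 0.0338% in all. Without adjustment 32 members were higher at a p below 0.05, against 9.76% of genes tested. Log2 fold changes were positive for 49 of 49 members (49.6% of genes tested), between 0.07 and 1.05 with a median of 0.47 (all genes, 0.00). All Smad4 KO libraries lay above all controls for 35 members, against 14.2% of genes tested. Ratios of means had a median of 1.42 and reached 2 in Ppan and Bysl. No member was called in any of the 16 alternative fits, in which the smallest adjusted p was 0.077. Both comparisons use the same control libraries, so their directions are not independent of each other.

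**Figure D1:**
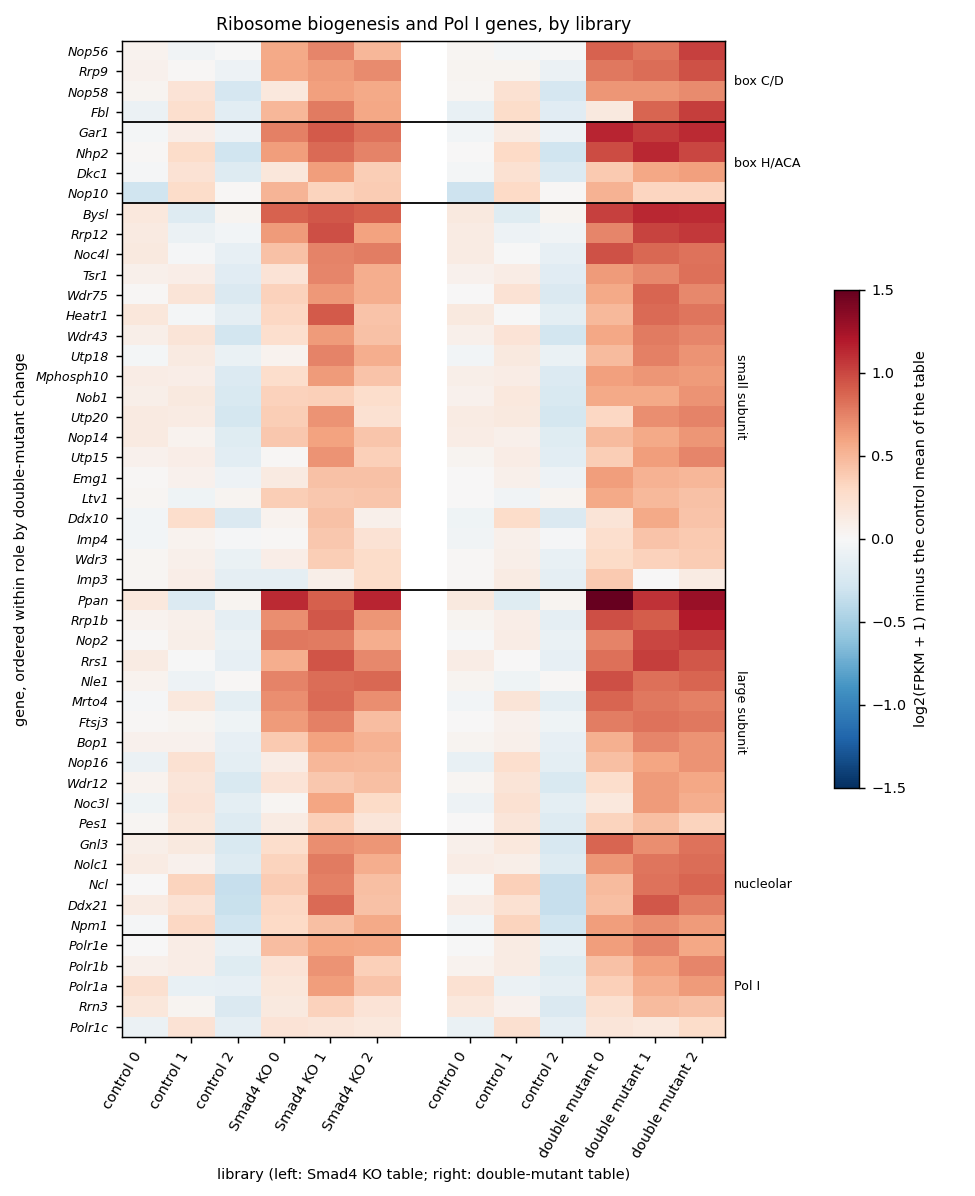
Each row is 1 member and each column 1 library; colour gives log2(FPKM + 1) minus the control mean of the same table, with red above and blue below. Smad4 KO and double-mutant columns are red in most rows, palest in Smad4 KO 0 and for Imp3 and Polr1c, and control 2 is blue in most rows.

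**Figure D2:**
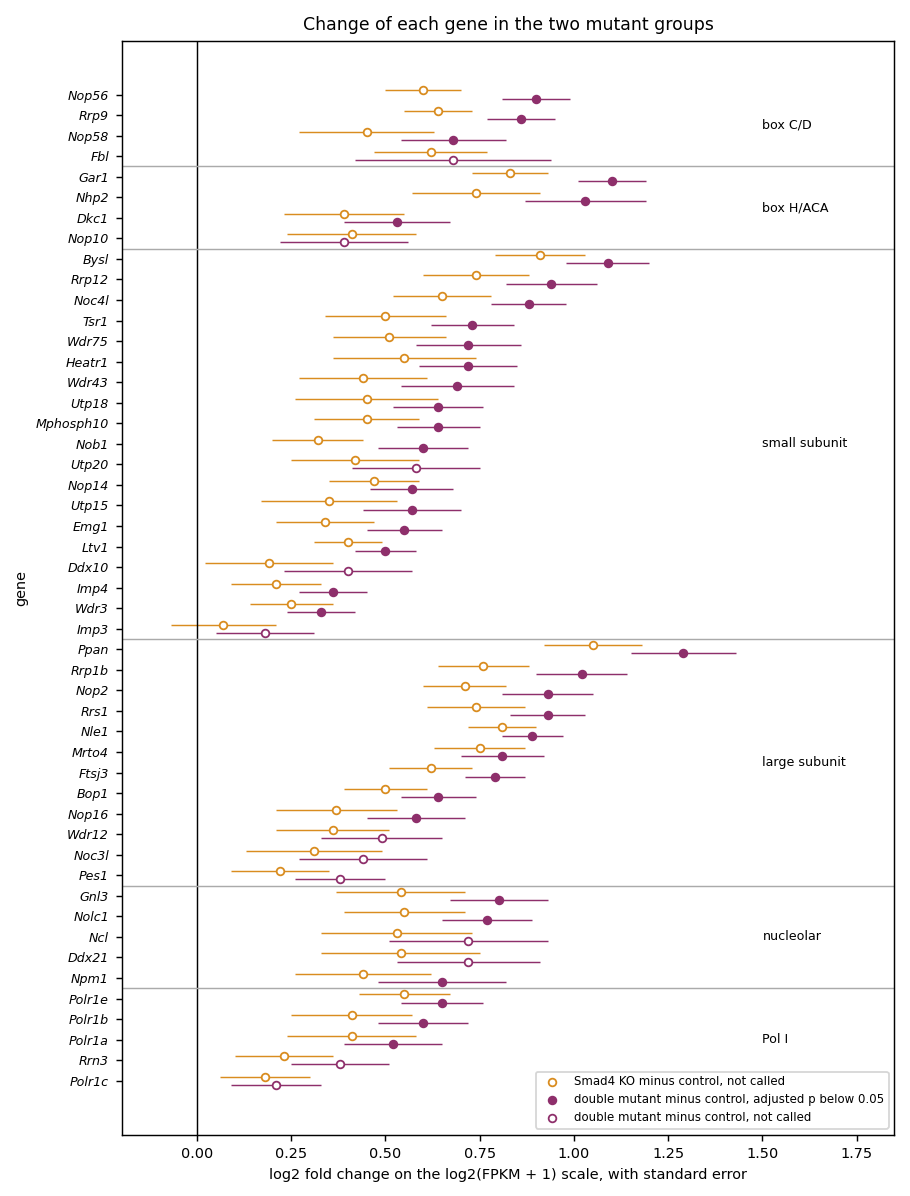
Points are log2 fold changes of each member on the log2(FPKM + 1) scale with standard errors as bars, in Smad4 KO (orange) and double mutants (purple); filled points passed an adjusted p of 0.05. All 37 filled points belong to the double mutants, and Ppan lies farthest from 0 in both groups.

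The box C/D group holds the snoRNP core proteins Nop56 and Nop58, the methyltransferase Fbl (fibrillarin) and Rrp9, a protein of the snoRNP that guides early cuts of the precursor. In the double mutants 3 of the 4 rose (9.39% of genes tested). Nop56 was at 37.3, 35.8 and 36.4 FPKM in the controls and at 68.2, 64.3 and 75.2 FPKM in the double mutants, 1.9-fold on the means (log2 fold change 0.90, SE 0.09, limma adjusted p = 0.00997). Its controls lay close together and every double mutant was far above them. Rrp9 was at 19.1, 19.0 and 17.4 FPKM in the controls and at 32.8, 33.7 and 36.8 FPKM in the double mutants, 1.86-fold on the means (log2 fold change 0.86, SE 0.09, limma adjusted p = 0.00997). Nop58 was at 58.5, 67.3 and 48.0 FPKM in the controls and at 91.1, 91.3 and 94.3 FPKM in the double mutants, 1.59-fold on the means (log2 fold change 0.68, SE 0.14, limma adjusted p = 0.0269), with no overlap between the groups. Fbl did not pass: it was at 11.5, 15.3 and 11.0 FPKM in the controls and 13.9, 23.6 and 26.7 FPKM in the double mutants (log2 fold change 0.68, SE 0.26, limma adjusted p = 0.112), where double mutant 0 lay inside the range of the controls. In the Smad4 KO table, Nop56 was at 36.2, 33.8 and 34.9 FPKM in the controls and 52.1, 58.9 and 49.7 FPKM in Smad4 KO (log2 fold change 0.60, SE 0.10, limma adjusted p = 0.111). Rrp9 was at 18.5, 18.0 and 16.7 FPKM in the controls and 26.9, 28.2 and 29.5 FPKM in Smad4 KO (log2 fold change 0.64, SE 0.09, limma adjusted p = 0.106). Fbl was at 11.2, 14.4 and 10.6 FPKM in the controls and 17.3, 21.2 and 18.4 FPKM in Smad4 KO (log2 fold change 0.62, SE 0.15, limma adjusted p = 0.14), without overlap. Nop58 overlapped, with 56.7, 63.5 and 46.0 FPKM in the controls and 61.5, 85.0 and 82.2 FPKM in Smad4 KO (log2 fold change 0.45, SE 0.18, limma adjusted p = 0.259), where Smad4 KO 0 lay below control 1.

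The box H/ACA proteins are the pseudouridine synthase Dkc1 (dyskerin) and its partners Gar1, Nhp2 and Nop10. Of these, 3 of 4 rose in the double mutants (9.39% of genes tested). Gar1 was at 31.6, 35.5 and 30.7 FPKM in the controls and at 72.9, 68.3 and 71.9 FPKM in the double mutants, 2.18-fold on the means (log2 fold change 1.10, SE 0.09, limma adjusted p = 0.00694). Its lowest double mutant was at nearly 2 times its highest control, and its adjusted p was the smallest among the members. Nhp2 was at 50.8, 62.3 and 40.9 FPKM in the controls and at 101, 112 and 102 FPKM in the double mutants, 2.04-fold on the means (log2 fold change 1.03, SE 0.16, limma adjusted p = 0.0169). Dkc1 was at 27.1, 32.8 and 24.0 FPKM in the controls and at 36.8, 41.9 and 42.9 FPKM in the double mutants, 1.45-fold on the means (log2 fold change 0.53, SE 0.14, limma adjusted p = 0.0442). These 3 genes had every double mutant above every control (21.3% of genes tested). Nop10 was at 77.9, 119 and 97.9 FPKM in the controls and 139, 121 and 121 FPKM in the double mutants and did not pass (log2 fold change 0.39, SE 0.17, limma adjusted p = 0.16); control 1 nearly reached the double mutants. In the Smad4 KO table, Gar1 was at 30.6, 33.5 and 29.4 FPKM in the controls and 53.2, 59.7 and 55.4 FPKM in Smad4 KO (log2 fold change 0.83, SE 0.10, limma adjusted p = 0.102). Nhp2 was at 49.2, 58.8 and 39.2 FPKM in the controls and 75.6, 87.8 and 82.1 FPKM in Smad4 KO (log2 fold change 0.74, SE 0.17, limma adjusted p = 0.131). Both were above all controls in each Smad4 KO library, as was Nop10 with 75.6, 113 and 93.8 FPKM in the controls and 133, 117 and 121 FPKM in Smad4 KO. Dkc1 overlapped, with 26.3, 30.9 and 23.0 FPKM in the controls and 30.0, 41.4 and 34.5 FPKM in Smad4 KO (log2 fold change 0.39, SE 0.16, limma adjusted p = 0.274).

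Factors of the small subunit were the largest group, and 16 of 19 rose in the double mutants (9.39% of genes tested). Their median log2 fold change was 0.60. Bysl, an assembly factor that stays on the small-subunit precursor until late, changed most. Bysl was at 7.5, 5.8 and 6.92 FPKM in the controls and at 14.7, 15.9 and 15.8 FPKM in the double mutants, 2.3-fold on the means (log2 fold change 1.09, SE 0.11, limma adjusted p = 0.00997). Rrp12 was at 9.51, 8.17 and 8.33 FPKM in the controls and at 15.1, 18.5 and 19.2 FPKM in the double mutants, 2.03-fold on the means (log2 fold change 0.94, SE 0.12, limma adjusted p = 0.0126); its product takes part in export and maturation of the precursor. Noc4l was at 22.1, 20.1 and 18.4 FPKM in the controls and at 40.0, 37.5 and 36.2 FPKM in the double mutants, 1.88-fold on the means (log2 fold change 0.88, SE 0.10, limma adjusted p = 0.0107). All 3 genes were above every control in each double mutant (21.3% of genes tested). Tsr1 was at 28.0, 29.1 and 23.7 FPKM in the controls and at 42.2, 44.9 and 48.3 FPKM in the double mutants, 1.68-fold on the means (log2 fold change 0.73, SE 0.11, limma adjusted p = 0.0163); Tsr1 is a GTPase-like factor of the late cytoplasmic steps. Last exons of Bysl and Ccnd3 overlap by 361 bases and those of Tsr1 and Srr by 1159 bases in the GENCODE annotation, and the kit does not mark strand. Srr was not called in the double mutants (7.97 ± 1.12 against 9.83 ± 2.44 FPKM, SD, n = 3 each), and Ccnd3, a cyclin, rose to 22.4 ± 2.3 from 15.7 ± 0.446 FPKM (SD, n = 3 each), a call at a limma adjusted p of 0.0272; the part of the overlap in these values was not tested.

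The other called small-subunit members were parts of the processome, the assembly that forms on the nascent precursor, and factors of later steps. Wdr43, Wdr75, Utp15 and Heatr1, of the subcomplex linked to polymerase I transcription, had log2 fold changes of 0.69, 0.72, 0.57 and 0.72 (limma adjusted p between 0.0229 and 0.0341). Nop14, Utp18, Mphosph10, Imp4 and Wdr3 had 0.57, 0.64, 0.64, 0.36 and 0.33 (limma adjusted p between 0.0194 and 0.047). Emg1, the late factor Ltv1 and the endonuclease Nob1, which makes the last cut, had 0.55, 0.50 and 0.60 (limma adjusted p between 0.0178 and 0.0265). Imp3, which acts in a complex with Imp4 and Mphosph10, was the member with the smallest change: 48.4, 52.2 and 43.5 FPKM in the controls and 63.2, 48.2 and 52.3 FPKM in the double mutants (log2 fold change 0.18, SE 0.13, limma adjusted p = 0.38). Double mutant 0 lay above its controls, double mutant 2 level with control 1, and double mutant 1 among them. Utp20 and the helicase Ddx10 had log2 fold changes of 0.58 and 0.40 (limma adjusted p = 0.0635 and 0.136).

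Smad4 KO values of the small-subunit group had a median log2 fold change of 0.44. For 14 of 19, every Smad4 KO library was above all controls, against 14.2% of genes tested. Bysl was at 7.27, 5.48 and 6.64 FPKM in the controls and 12.7, 13.2 and 12.8 FPKM in Smad4 KO (log2 fold change 0.91, SE 0.12, limma adjusted p = 0.106). Its Smad4 KO libraries lay close together, above all controls. Noc4l was at 21.4, 19.0 and 17.7 FPKM in the controls and 26.5, 32.9 and 33.7 FPKM in Smad4 KO (log2 fold change 0.65, SE 0.13, limma adjusted p = 0.122). Rrp12 was at 9.22, 7.71 and 7.99 FPKM in the controls and 13.4, 17.2 and 13.1 FPKM in Smad4 KO (log2 fold change 0.74, SE 0.14, limma adjusted p = 0.116). Tsr1 was at 27.2, 27.5 and 22.7 FPKM in the controls and 29.9, 43.4 and 38.0 FPKM in Smad4 KO (log2 fold change 0.50, SE 0.16, limma adjusted p = 0.2), lowest in Smad4 KO 0 and still above its controls. Imp3 overlapped, with only Smad4 KO 2 above every control, at 46.9, 49.3 and 41.7 FPKM in the controls and 41.8, 48.6 and 55.5 FPKM in Smad4 KO (log2 fold change 0.07, SE 0.14, limma adjusted p = 0.805). Without Smad4 KO 2 its log2 fold change was -0.02.

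Factors of the large subunit had the highest median log2 fold change of the role groups, 0.80. Of the 12, 9 rose in the double mutants (9.39% of genes tested). Ppan, a nucleolar factor needed to process the large-subunit RNAs, had the greatest change of all members. Ppan was at 29.7, 23.5 and 27.6 FPKM in the controls and at 78.2, 58.0 and 67.0 FPKM in the double mutants, 2.51-fold on the means (log2 fold change 1.29, SE 0.14, limma adjusted p = 0.0107). Its double mutants were spread widely, and the lowest was still well above the highest control. Nle1 was at 12.1, 11.2 and 11.9 FPKM in the controls and at 23.9, 21.6 and 22.3 FPKM in the double mutants, 1.93-fold on the means (log2 fold change 0.89, SE 0.08, limma adjusted p = 0.00791); Nle1 recruits the machine that strips factors off the large-subunit precursor. Ftsj3 was at 29.8, 31.0 and 28.4 FPKM in the controls and at 51.3, 53.1 and 52.2 FPKM in the double mutants, 1.76-fold on the means (log2 fold change 0.79, SE 0.08, limma adjusted p = 0.00997); it is a methyltransferase of the precursor. Rrs1 was at 15.4, 14.3 and 13.0 FPKM in the controls and at 26.0, 30.1 and 28.0 FPKM in the double mutants, 1.97-fold on the means (log2 fold change 0.93, SE 0.10, limma adjusted p = 0.0105). Rrs1 is needed to bring in the RNP of the smallest ribosomal RNA, and its groups did not overlap. Rrp1b, the methyltransferase Nop2 and Mrto4 had log2 fold changes of 1.02, 0.93 and 0.81 (limma adjusted p between 0.0109 and 0.0134). Nop16 had 0.58 (limma adjusted p = 0.0367).

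Bop1, Pes1 and Wdr12 form 1 complex in large-subunit processing and differed in their calls. Bop1 rose, from 32.6, 33.4 and 28.9 to 46.0, 52.9 and 51.0 FPKM (log2 fold change 0.64, SE 0.10, limma adjusted p = 0.0169). Pes1 was at 18.2, 20.7 and 15.7 FPKM in the controls and 23.0, 25.2 and 23.1 FPKM in the double mutants and did not pass (log2 fold change 0.38, SE 0.12, limma adjusted p = 0.073). Wdr12 was at 6.68, 7.59 and 5.39 FPKM in the controls and 7.99, 10.7 and 10.2 FPKM in the double mutants (log2 fold change 0.49, SE 0.16, limma adjusted p = 0.0765). For all 3 every double mutant was above every control (21.3% of genes tested), and the differences between their changes were not tested. Noc3l, which acts with Noc2l, was at 8.84, 11.1 and 8.36 FPKM in the controls and 10.6, 15.1 and 14.1 FPKM in the double mutants, where double mutant 0 was below control 1 (log2 fold change 0.44, SE 0.17, limma adjusted p = 0.11).

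In Smad4 KO the large-subunit group had a median of 0.66, and 9 of 12 lay above all controls in every library (14.2% of genes tested). Ppan was at 28.8, 22.2 and 26.4 FPKM in the controls and 56.7, 48.7 and 57.8 FPKM in Smad4 KO (log2 fold change 1.05, SE 0.13, limma adjusted p = 0.102). Nle1 was at 11.7, 10.6 and 11.4 FPKM in the controls and 19.4, 20.9 and 21.2 FPKM in Smad4 KO (log2 fold change 0.81, SE 0.09, limma adjusted p = 0.102), and had the smallest unadjusted p of the members. Ftsj3 was at 28.9, 29.3 and 27.2 FPKM in the controls and 44.9, 48.7 and 39.6 FPKM in Smad4 KO (log2 fold change 0.62, SE 0.11, limma adjusted p = 0.111). Each Smad4 KO library was above each control for these 3 genes. Rrs1 was at 14.9, 13.5 and 12.4 FPKM in the controls and 20.3, 27.0 and 23.0 FPKM in Smad4 KO (log2 fold change 0.74, SE 0.13, limma adjusted p = 0.111). Rrp1b, Nop2, Mrto4 and Bop1 had log2 fold changes of 0.76, 0.71, 0.75 and 0.50, and Nop16, Wdr12, Noc3l and Pes1 had 0.37, 0.36, 0.31 and 0.22.

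**Figure D3:**
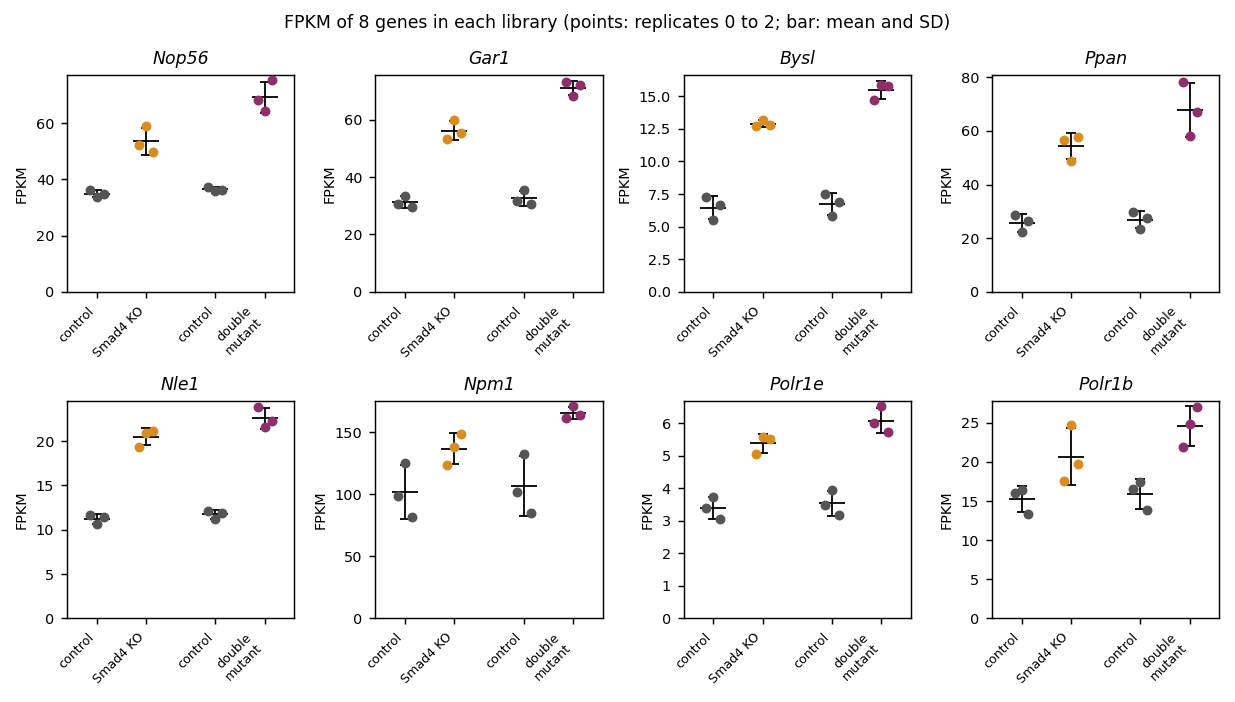
Points are FPKM of single libraries for 8 members, with the mean and SD of each group as bars; every panel starts at 0 and shows the Smad4 KO table on the left and the double-mutant table on the right. Mutant points lie above the controls in all panels except Npm1 in Smad4 KO, where Smad4 KO 0 is just under control 1.

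Among the abundant nucleolar proteins, 3 of 5 rose in the double mutants (9.39% of genes tested). Nolc1 was at 34.3, 33.9 and 27.6 FPKM in the controls and at 50.7, 56.3 and 57.6 FPKM in the double mutants, 1.72-fold on the means (log2 fold change 0.77, SE 0.12, limma adjusted p = 0.0164); Nolc1 is a chaperone of snoRNPs. Gnl3 was at 36.7, 39.0 and 29.4 FPKM in the controls and at 64.4, 57.1 and 62.1 FPKM in the double mutants, 1.75-fold on the means (log2 fold change 0.80, SE 0.13, limma adjusted p = 0.0177); Gnl3, also called nucleostemin, is a GTPase abundant in stem and progenitor cells. Npm1 was at 102, 133 and 85.2 FPKM in the controls and at 162, 171 and 164 FPKM in the double mutants, 1.55-fold on the means (log2 fold change 0.65, SE 0.17, limma adjusted p = 0.0465). Npm1 has many processed copies in the genome, so its reads may be shared. Ddx21, a helicase of polymerase I transcription and processing, was at 39.1, 42.8 and 28.4 FPKM in the controls and 49.8, 69.9 and 62.6 FPKM in the double mutants and narrowly missed the threshold (log2 fold change 0.72, SE 0.19, limma adjusted p = 0.0504). Ncl (nucleolin) was at 64.5, 83.4 and 50.9 FPKM in the controls and 90.4, 115 and 120 FPKM in the double mutants (log2 fold change 0.72, SE 0.21, limma adjusted p = 0.0584). These 5 genes had every double mutant above every control (21.3% of genes tested), and their controls were lowest in replicate 2. In the Smad4 KO table, Nolc1 was at 33.3, 32.0 and 26.5 FPKM in the controls and 38.5, 52.8 and 44.8 FPKM in Smad4 KO (log2 fold change 0.55, SE 0.16, limma adjusted p = 0.173). Gnl3 was at 35.5, 36.8 and 28.2 FPKM in the controls and 40.3, 54.7 and 53.1 FPKM in Smad4 KO (log2 fold change 0.54, SE 0.17, limma adjusted p = 0.186). Ncl, Ddx21 and Npm1 had log2 fold changes of 0.53, 0.54 and 0.44.

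The polymerase I group had the lowest median log2 fold changes, 0.52 in the double mutants and 0.41 in Smad4 KO. Of its 5 genes, 3 rose in the double mutants (9.39% of genes tested). Differences between role groups were not tested. Polr1e was at 3.49, 3.94 and 3.18 FPKM in the controls and at 6.0, 6.52 and 5.74 FPKM in the double mutants, 1.72-fold on the means (log2 fold change 0.65, SE 0.11, limma adjusted p = 0.0201). Polr1b was at 16.5, 17.4 and 13.8 FPKM in the controls and at 21.9, 24.8 and 27.0 FPKM in the double mutants, 1.55-fold on the means (log2 fold change 0.60, SE 0.12, limma adjusted p = 0.028); it is the second-largest subunit. Polr1a was at 13.7, 10.8 and 10.5 FPKM in the controls and at 15.1, 17.4 and 18.6 FPKM in the double mutants, 1.46-fold on the means (log2 fold change 0.52, SE 0.13, limma adjusted p = 0.0459); it is the largest subunit, which holds part of the active site. These 3 genes had every double mutant above every control (21.3% of genes tested). Rrn3, the factor that brings the polymerase to its promoter, was at 17.0, 15.9 and 12.9 FPKM in the controls and 18.1, 21.5 and 20.9 FPKM in the double mutants (log2 fold change 0.38, SE 0.13, limma adjusted p = 0.086). Polr1c, which polymerase III shares, was at 33.4, 42.5 and 32.6 FPKM in the controls and 41.0, 40.3 and 43.8 FPKM in the double mutants, with control 1 inside the range of the mutants (log2 fold change 0.21, SE 0.12, limma adjusted p = 0.269). In the Smad4 KO table, Polr1e was at 3.38, 3.72 and 3.05 FPKM in the controls and 5.05, 5.59 and 5.53 FPKM in Smad4 KO (log2 fold change 0.55, SE 0.12, limma adjusted p = 0.13). Polr1b was at 16.0, 16.4 and 13.3 FPKM in the controls and 17.6, 24.7 and 19.7 FPKM in Smad4 KO (log2 fold change 0.41, SE 0.16, limma adjusted p = 0.242). Polr1a, Rrn3 and Polr1c overlapped with the controls (log2 fold changes 0.41, 0.23 and 0.18).

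A further 150 factors of the pathway, listed by role, were read from the same fits. Of the 149 tested, 77 rose and 0 fell in the double mutants (51.7%, against 9.39% of all genes), with a median log2 fold change of 0.42. After Smad4 loss alone, 0 were called and the median was 0.28. At an unadjusted limma p below 0.05, 55 were higher and 0 lower, against 9.76% and 9.34% of all genes. Taf1a was listed at 0 in every library and not tested. Other snoRNP proteins and assembly factors rose in 8 of 11 cases, among them Naf1, which assembles box H/ACA particles (log2 fold change 0.74, limma adjusted p = 0.0197). RNase MRP and P subunits rose in 7 of 10 cases, and exosome and trimming factors in 10 of 17, led by Exosc6 at 10.3, 14.0 and 11.6 FPKM in the controls and 27.5, 24.5 and 24.6 FPKM in the double mutants (log2 fold change 1.04, SE 0.13, limma adjusted p = 0.0123). Other large-subunit factors rose in 28 of 53 cases and small-subunit factors in 18 of 41, with Nsun5 (0.82) and the acetyltransferase Nat10 (0.75) at the smallest p. Other polymerase I machinery rose in 6 of 17 cases. Tcof1, a nucleolar cofactor of polymerase I also called treacle, was at 13.0, 12.5 and 10.2 FPKM in the controls and 22.5, 25.2 and 24.9 FPKM in the double mutants (log2 fold change 0.97, SE 0.11, limma adjusted p = 0.0117). Ubtf, which opens ribosomal DNA for transcription, was at 33.9, 38.6 and 34.4 FPKM in the controls and 35.9, 41.3 and 43.7 FPKM in the double mutants, with overlap (log2 fold change 0.17, SE 0.11, limma adjusted p = 0.306).

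Genes of the ribosome's own proteins had lower medians, and the difference from the members was not tested. Of 75 cytosolic ribosomal protein genes tested in the double mutants, 8 rose and 0 fell (10.7%, near the 9.39% of all genes), with a median log2 fold change of 0.16. Of the 75, 55 had a positive change (49.9% of all genes), 22 lay above and 0 below all controls (21.3% of all genes each), and 19 were higher and 0 lower at an unadjusted p below 0.05 (18.2% of all genes were higher). After Smad4 loss alone, 0 of 74 were called and 37 were positive, with a median of 0.01; 13 were higher and 0 lower at an unadjusted p below 0.05, where 9.76% of all genes were higher. These short genes have many near-identical copies, so their FPKM are uncertain. Rpl23a, among the 8 called in the double mutants, was listed between 0.144 and 0.403 FPKM in the controls. It passed the filter of 1 FPKM on the mean only through its double-mutant values, so its call carries little weight.

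The Myc family was read as well, since its members are known regulators of the pathway. Myc was at 43.1, 44.9 and 25.5 FPKM in the controls and 46.2, 41.4 and 54.3 FPKM in the double mutants, with overlap (log2 fold change 0.35, SE 0.23, limma adjusted p = 0.329). In Smad4 KO it was at 41.8, 42.4 and 24.5 FPKM in the controls and 34.5, 31.4 and 53.9 FPKM in Smad4 KO (log2 fold change 0.14, SE 0.29, limma adjusted p = 0.828), highest in replicate 2 and below the control mean in replicates 0 and 1. Its log2 fold change in Smad4 KO was -0.09 without Smad4 KO 2 and -0.11 without control 2. Mycn was at 1.32, 2.97 and 1.96 FPKM in the controls and 2.09, 2.46 and 2.71 FPKM in the double mutants, and Mycl at 10.9, 13.5 and 11.6 FPKM in the controls and 8.62, 12.5 and 11.8 FPKM in the double mutants; neither passed (0.18 and -0.13 on the log2 scale, limma adjusted p = 0.591 and 0.582). RNA levels do not show the amount of Myc protein.

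**Figure D4:**
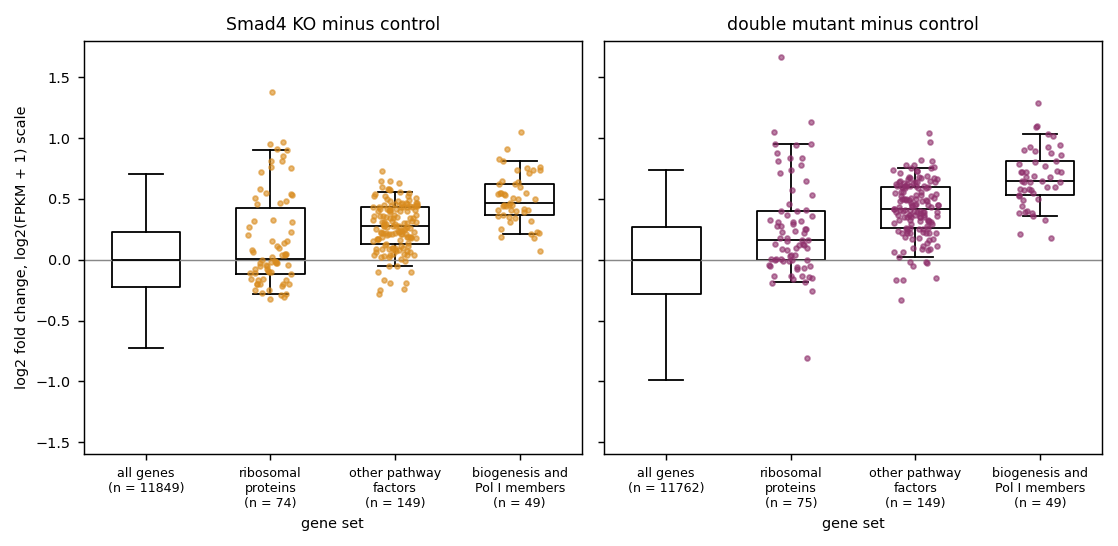
Boxes give the quartiles and median of log2 fold changes on the log2(FPKM + 1) scale, whiskers the 5th and 95th percentiles and points single genes, for all genes tested, cytosolic ribosomal proteins, other pathway factors and the members; 2 ribosomal protein points lie beyond the axis. The member medians are 0.47 and 0.65, above those of the other pathway factors (0.28 and 0.42), and ribosomal proteins have 0.01 and 0.16.

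Single libraries differed in how far the members stood from the controls. The mean over members of log2(FPKM + 1) minus the control mean was 0.04, 0.10 and -0.15 in the controls and 0.36, 0.64 and 0.49 in Smad4 KO. In the double-mutant table it was 0.03, 0.12 and -0.15 in the controls and 0.59, 0.71 and 0.73 in the double mutants. Each mutant library was thus above each control. The coefficient of variation of a member had a median of 11.8% in the controls of that table and 7.24% in the double mutants. Smad4 KO 0 had the lowest value among its group for 39 of 49 members, and Smad4 KO 1 the highest for 38. Summed FPKM of the 49 members were 1284, 1404 and 1137 in the controls and 1650, 1953 and 1814 in Smad4 KO, and 1324, 1488 and 1186 in the controls and 2077, 2163 and 2190 in the double mutants of the second table. Library totals differ, and as a share of them the members made up 0.175%, 0.247% and 0.181% in the controls and 0.285%, 0.323% and 0.241% in Smad4 KO, so that Smad4 KO 2 lay just below control 1. In the double mutants the shares were 0.286%, 0.377% and 0.368%, above every control.

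Markers of the cells in the preparation also differed between the groups. In bulk RNA, fewer cells of a type and less RNA per cell cannot be told apart. The part of such differences in the members' changes was not tested. The mean offset of 12 proliferation genes was -0.05, 0.29 and -0.24 in the controls and -0.17, 0.47 and 0.31 in Smad4 KO, the same order of controls as for the members. In the second table it was -0.07, 0.31 and -0.24 in the controls and 0.31, 0.54 and 0.43 in the double mutants, where 3 of the 12 rose (9.39% of genes tested). In Smad4 KO 0 the proliferation mean was below the control mean, with 3 of 12 genes above their own, while the member mean was 0.36 above it. Summed FPKM of 10 enterocyte markers were 3393, 4589 and 9784 in the controls and 13714, 916 and 2116 in Smad4 KO. They were 3498, 4863 and 10205 in the controls and 1005, 1986 and 1951 in the double mutants of the second table, where 9 of 10 fell (9.09% of genes tested). Smad4 KO 0 exceeded every control in this sum. Fabp1, Apoa1, Apoa4 and Fabp2 were above every control there, and the other 6 markers were below control 2. As for crypts, all 8 Paneth markers were at or above 1 FPKM in every library, as were 7 of 8 stem cell markers in Smad4 KO 0 and 8 of 8 elsewhere. Paneth sums in the first table were 89257, 26209 and 20550 FPKM in the controls and 4173, 27133 and 75119 FPKM in Smad4 KO. Stem cell sums there were 1177, 1639 and 734 FPKM in the controls and 338, 1075 and 1238 FPKM in Smad4 KO. Smad4 KO 0 was thus lowest in both. In the double mutants the stem cell markers Smoc2 and Lgr5 rose (9.39% of genes tested). All 8 had positive log2 fold changes there (49.9% of genes tested), with a median of 0.34. Of the 8, 0 were called in Smad4 KO, with a median of -0.29. Enteroendocrine markers had a median of 0.69 in Smad4 KO, where 0 of 8 were called and 8 were positive. Of these, 6 lay above all controls (14.2% of genes tested), and 6 were higher at an unadjusted limma p below 0.05 (9.76%). Pyy, a gut hormone, was at 4.32, 1.67 and 6.56 FPKM in the controls and 41.7, 16.7 and 34.8 FPKM in Smad4 KO. In the double mutants 1 of the 8 enteroendocrine markers rose (9.39% of genes tested), with a median of 0.47. Tuft cell markers had medians of -0.79 in Smad4 KO and -0.81 in the double mutants, with 0 of 6 tested called in either. At an unadjusted limma p below 0.05, 3 and 2 were lower, against 9.34% and 18.4% of genes tested. Goblet cell markers had medians of 0.20 and 0.06, and Paneth markers of -0.53 and -0.47, with 0 of 8 called in each.

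Markers of immune, stromal and blood cells had lower sums than Paneth, goblet, stem cell and enterocyte markers in every library. Summed FPKM of 8 T and B cell markers were 124, 81.1 and 123 in the controls and 154, 9.42 and 72.8 in Smad4 KO. In the second table they were 128, 86.0 and 129 in the controls and 36.8, 17.7 and 50.6 in the double mutants, where 5 of 6 tested fell (9.09% of genes tested). Of 10 stromal, muscle and endothelial markers 1 reached 1 FPKM in each control, and their sums were 23.7, 7.72 and 90.8 FPKM in Smad4 KO and 57.5, 4.98 and 8.1 FPKM in the double mutants, against at most 9.3 FPKM in the controls. Red blood cell markers summed to 51.2 FPKM in Smad4 KO 2 and 36.7 FPKM in double mutant 0, and to at most 6.5 FPKM elsewhere. The part of any of these cells in the members' values was not tested. Smad4 KO 2 and double mutant 0 were the libraries with the most stromal and blood RNA. The member median was 0.48 without Smad4 KO 2 and 0.71 without double mutant 0. Without double mutant 0, 12 members were called, against 37 with all libraries.

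**Figure D5:**
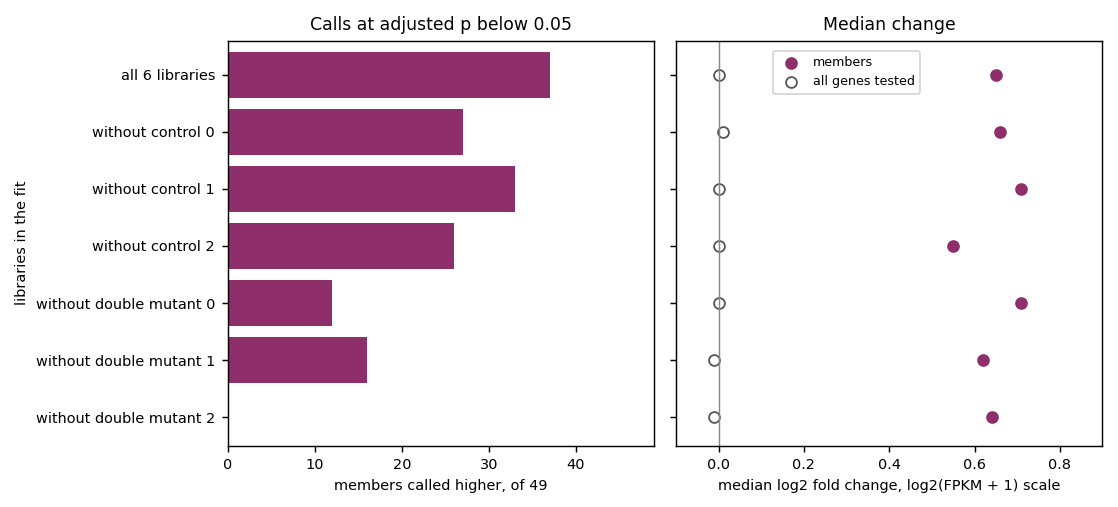
Bars give the number of the 49 members called higher in the double mutants with all 6 libraries and without each in turn; points give the median log2 fold change of the members (filled) and of all genes tested (open). Calls run from 37 to 0 while the member medians stay between 0.55 and 0.71.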

How the data were processed

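Jejunal crypt RNA of 9 libraries was prepared with the TruSeq RNA kit v2, which does not mark strand. Values are FPKM per gene, deposited by the authors in 2 tables of 6 libraries. TopHat2 2.1.1, Cuffnorm 2.2.1, Cuffdiff 2.2.1 and mm9 are named in the submitters' processing notes; an annotation was not given in the sources used here. limma 3.58.1 under R 4.3.3 was run within a table on log2(FPKM + 1), after genes whose mean over the 6 libraries was under 1 FPKM had been dropped, with a mean-variance trend, two-sided tests and Benjamini-Hochberg adjustment over all genes tested. The pseudocount of 1 understates fold changes of low genes. FPKM hold no depth, so no counting interval is given. The script was tested on simulated data. Members and lists were chosen with earlier results of these data known. All members were named at least once. Values per library were given for up to 4 members of each role with the smallest unadjusted p in the double mutants and for the 2 highest and 2 lowest control means; other members' values were printed after they were seen. Of other pathway lists, up to 3 genes with the smallest p could be named, and the Myc family was always given; Ubtf was chosen after its values were seen. Exon overlaps came from GENCODE M21 and promoter windows from RefSeq (GRCm38.p6); 15 members share exon sequence with another gene. Alternatives were other pseudocounts, filters and scalings, no trend, sex as a covariate, a replicate block and each library left out. Sex was not labelled and was inferred from Xist against genes of the Y chromosome. By this, controls held 1 female and 2 male libraries, and each mutant group 2 female and 1 male. Same-numbered libraries deviated together only weakly (correlations of deviations -0.111, 0.223 and -0.099 for Smad4 KO with controls, and 0.072, 0.132 and 0.037 for double mutants), so the numbers were not taken to pair them.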

Additional observations from a re-analysis of the deposited data

How the results depend on the processing

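The member medians kept their sign in all 16 alternatives of each comparison, at 0.40 to 0.58 in Smad4 KO and 0.55 to 0.73 in the double mutants. In Smad4 KO, where 4 genes were called in all, 2 were called with a pseudocount of 5, 8 after quantile normalization, 2 with sex as a covariate, 7 after scaling to a sum without the 50 highest genes, and 5 to 16 when 1 library was left out; members called were 0 throughout. In the double mutants 2173 genes and 37 members were called, against 1392 and 31 without the filter on low values, 30 to 1555 and 0 to 33 when 1 library was left out, and 31 to 39 members in the other alternatives apart from the block. With the replicate number as a block, 1 gene was called in Smad4 KO, where Smad4 itself then missed the threshold, and 1602 genes and 26 members in the double mutants. In Smad4 KO, Smad4 was called in 14 of the 16 alternatives, among them all 6 with a library left out. In the double-mutant table every library correlated best with its own number, though weakly, a hint from the data and not from the design. In the Smad4 KO table, control 0 correlated best with Smad4 KO 2 (0.198) and control 2 with Smad4 KO 0 (0.211). Signs turned when 1 library was left out in Smad4 KO for Ctnnb1 (log2 fold change -0.01 to 0.19, lowest without Smad4 KO 0), Imp3 (-0.02 to 0.18, lowest without Smad4 KO 2) and Myc (-0.11 without control 2 and -0.09 without Smad4 KO 2, up to 0.29), and in the double mutants for Mycn (-0.01 to 0.38, lowest without control 0) and Mycl (-0.22 to 0.02, highest without double mutant 0). The cause was not tested.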
